A study of Bos taurus with 12 samples.

Results

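CORO1A, CD14, ITGB2 and S100A12 are 4 genes best known from white blood cells, and their transcripts were followed here in cultures of bovine chromaffin cells, which secrete catecholamines in the adrenal medulla. Every probe set that the array's annotation assigns to one of the 4 symbols was taken. The 4 genes, of 9155 with a symbol, were read by 5 of the 24016 probe sets tested: 2 for CD14 and 1 for each of the others. Cells received interleukin-6 (IL6) at 10 nM for 24 h, human interferon alpha (IFNα, spelled INFalpha in the design text) at 1 nM for 24 h, or histamine at 10 µM for 6 h, or were left untreated. Each group had 3 arrays, called repeats here. The submitters describe the triplicates as technical, so p-values measure the spread between these arrays and not that between cultures or animals. Neither the number of animals nor the culture time of the untreated cells was given in the sources used here. Labels name no purification step, and a chromaffin culture from adrenal tissue can hold other cells of the gland. IFNα and IL6 were given for the same time and histamine for a shorter one, so IL6 was tested against IFNα, and histamine only against untreated cells.

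The 4 genes act at different places in the innate immune response. S100A12 is a small calcium-binding protein that neutrophils store and release, and AGER, the receptor for advanced glycation end products, is among its receptors. CD14 sits on the surface of monocytes and macrophages and hands bacterial lipopolysaccharide to the receptor TLR4. ITGB2 is the beta chain shared by the leukocyte integrins, which bind ICAM proteins on other cells after pairing with an alpha chain such as ITGAL or ITGAM. CORO1A is an actin-binding protein of the coronin family, abundant in cells of blood origin, that acts with the Arp2/3 complex on the actin network.

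The values were log2 expression values made with RMA, in which 1 unit is a doubling. Array means were 6.79 on every array, and arrays of the same group correlated at 0.993 to 0.998 across probe sets. The values carry no detection calls. Lower quartiles of the arrays ran from 5.02 to 5.11. A group mean below all of them is called dim here, and a fold against a dim mean is read as a lower bound. A change was called at a Benjamini-Hochberg adjusted p under 0.05 over all probe sets and a fold of at least 1.5, from limma fitted to all 12 arrays. The number of arrays limits the precision of every value.

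The 4 genes did not move together. IL6 raised CORO1A and both CD14 probe sets and lowered ITGB2, and S100A12 was not called. IFNα lowered S100A12 and raised 1 of the 2 CD14 probe sets. Histamine raised S100A12 and CORO1A. Of the 5 probe sets, 3 were called higher and 1 lower after IL6, where 2.39% of all probe sets were called in either direction. After IFNα 1 was called higher and 1 lower, against 3.36% of all probe sets, and after histamine 2 were called higher and 0 lower, against 5.7%. IL6 against IFNα gave 3 called higher and 0 lower, against 6.11%. The 4 genes were chosen with earlier results of these data known, so counts among the 5 probe sets are not read as an excess. In a moderated F test over the 4 groups by limma, each of the 5 passed, with adjusted p between 2.71e-10 for CORO1A and 0.000147 for the dimmer CD14 probe set, and so did 49.1% of all probe sets. The 3 arrays of the treated group did not overlap the 3 untreated arrays for 4 of the 5 probe sets after IL6, 5 after IFNα and 3 after histamine. Such separation was found for 33.9%, 32.9% and 43.7% of all probe sets in the same comparisons. Between IL6 and IFNα it held for 4 of the 5, against 38.7%. The called shares above also stand beside the counts called in each gene list below. For list counts at an unadjusted p under 0.05, no share over all probe sets was counted. With no fold minimum many more probe sets passed the adjusted p than were called, as the closing section gives. Those unadjusted counts are therefore not read as an excess.

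**Figure D1:**
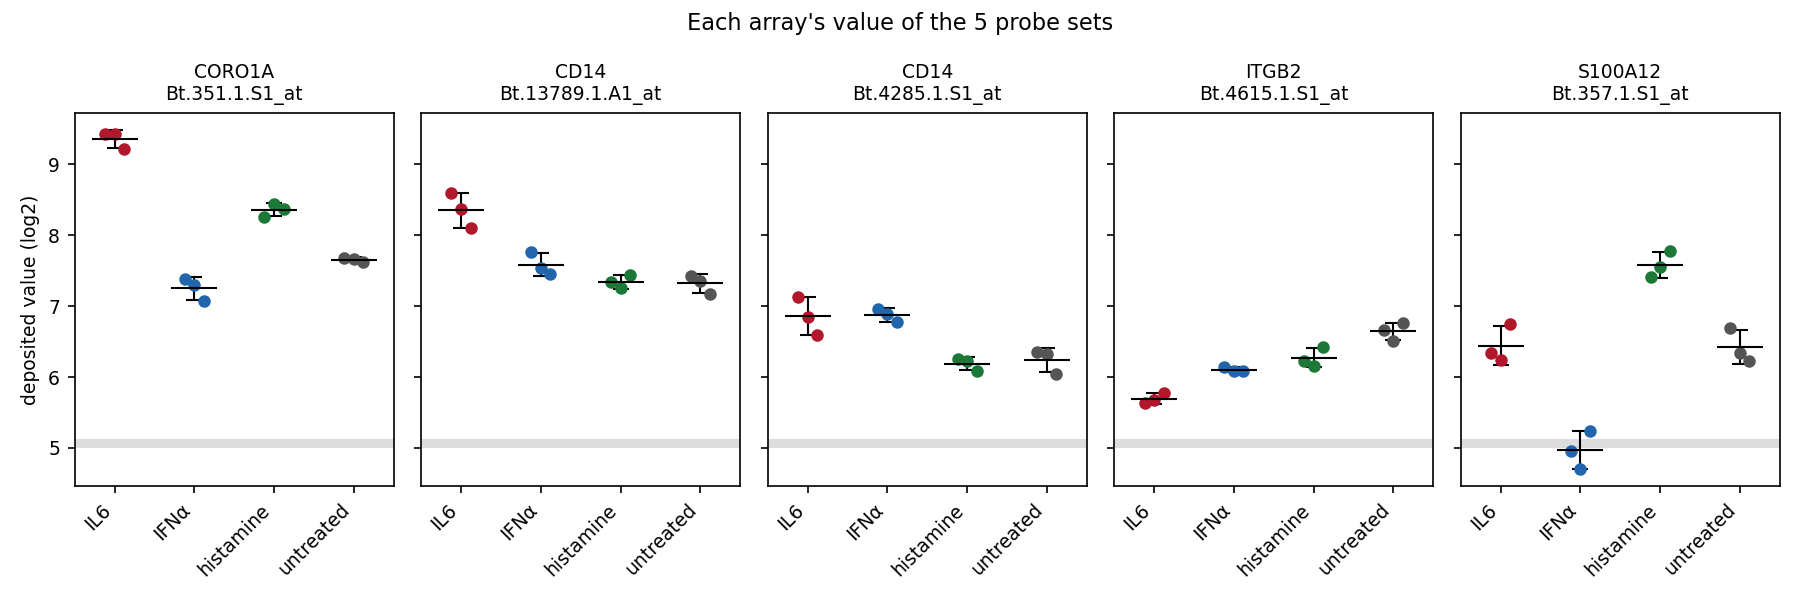
Log2 expression (vertical axis) on each of the 12 arrays for the 5 probe sets, with 1 point per array, a line at the mean and bars of 1 SD for each group of 3, and a grey band at the lower quartiles of the arrays. CORO1A is highest on the IL6 arrays at 9.21 to 9.43, ITGB2 is highest on the untreated arrays at 6.51 to 6.76, and S100A12 is highest on the histamine arrays at 7.41 to 7.78.

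S100A12 moved in opposite directions after IFNα and histamine. Its probe set, Bt.357.1.S1_at, read 6.34, 6.24 and 6.75 on IL6 repeats 1 to 3 and 4.96, 4.71 and 5.24 on the IFNα repeats. It read 7.41, 7.55 and 7.78 after histamine and 6.69, 6.34 and 6.23 in untreated cells. All IFNα arrays lay below, and all histamine arrays above, every array of the other groups, while the IL6 and untreated arrays overlapped. IFNα lowered it at least 2.73-fold, with a log2 change of -1.45 (SE 0.16, 95% interval -1.79 to -1.11, limma adjusted p = 1.18e-05). The IFNα mean of 4.97 ± 0.27 (SD, n = 3) was dim, at percentile 23.7 of the probe sets, and the untreated mean was 6.42 ± 0.24 (SD, n = 3). Histamine raised it 2.23-fold, with a log2 change of 1.16 (SE 0.16, adjusted p = 6.01e-05 by limma). After IL6 the change was 0.02 (interval -0.32 to 0.37, adjusted p = 0.938 by limma).

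Of the S100 family and AGER, 14 other genes of 18 listed were measured. After IFNα 1 of these 14 rose and 0 fell: S100A11, a member found in many tissues, rose 1.64-fold, the direction opposite to that of S100A12. After histamine 2 rose and 0 fell, S100A11 by 0.84 and S100A8 by 0.81 on the log2 scale. S100A8 and S100A9 form calprotectin, the other calcium-binding product that neutrophils release in quantity. S100A8 was close to the dim limit in untreated cells, at 5.95 after histamine and 5.15 untreated, and S100A9 had a change of 0.01 there. AGER was not called in any of the 4 comparisons, with changes between -0.23 and -0.09. After IL6 limma called 0 of the 14, and 7 had an unadjusted p under 0.05. The medians of the 14 were 0.12 after IL6, 0.02 after IFNα and 0.04 after histamine, against 0.0033, -0.02 and -0.0017 for all probe sets.

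CD14 was measured by 2 probe sets that did not give the same picture. They are told apart here by their brightness on the arrays, which does not compare amounts of RNA. The brighter, Bt.13789.1.A1_at, read 8.59, 8.37 and 8.10 on IL6 repeats 1 to 3 and 7.76, 7.54 and 7.45 on the IFNα repeats. It read 7.34, 7.25 and 7.44 after histamine and 7.43, 7.36 and 7.17 in untreated cells. The IL6 arrays lay above all others, the IFNα arrays lay just above the untreated ones, and the histamine and untreated arrays overlapped. IL6 raised it 2.05-fold (log2 change 1.03, SE 0.12, interval 0.79 to 1.28, limma adjusted p = 2.29e-05). The change was 0.26 after IFNα (interval 0.02 to 0.51, limma adjusted p = 0.148) and 0.02 after histamine (interval -0.22 to 0.27, limma adjusted p = 0.915).

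The dimmer CD14 probe set, Bt.4285.1.S1_at, read 7.13, 6.84 and 6.60 after IL6 and 6.96, 6.89 and 6.77 after IFNα. It read 6.26, 6.22 and 6.09 after histamine and 6.36, 6.32 and 6.05 in untreated cells. Here the arrays of both cytokines overlapped and lay above all histamine and untreated arrays. It rose 1.53-fold after IL6 (log2 change 0.61, SE 0.12, limma adjusted p = 0.00267) and 1.55-fold after IFNα (log2 change 0.63, SE 0.12, limma adjusted p = 0.00169). After histamine its change was -0.05 (interval -0.31 to 0.20). Both calls sat near the fold minimum: the IL6 change was 0.48 without IL6 repeat 1 and 0.52 without untreated repeat 3, and the IFNα change was 0.53 without untreated repeat 3, none of which passed it.

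The gap between the CD14 probe sets shows where they part. Within an array, the brighter read above the dimmer by 1.46 to 1.53 log2 units after IL6, by 0.80, 0.65 and 0.68 after IFNα, by 1.08, 1.03 and 1.35 after histamine and by 1.07, 1.04 and 1.12 in untreated cells. The gap was wider in all IL6 arrays, and narrower in all IFNα arrays, than in any untreated array. An exact two-sided permutation test gave p = 0.1 for IL6 and for IFNα against untreated, the smallest p that 3 arrays against 3 allow, and p = 0.8 for histamine.

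CD14 differed between arrays within groups, most after IL6. The mean of 13 hypoxia and glycolysis genes stood above the untreated mean by 0.14, 0.88 and 1.34 log2 units on IL6 repeats 1 to 3, by -0.01, -0.01 and 1.00 on IFNα repeats 1 to 3, and by 0.25 to 0.31 after histamine. Both CD14 probe sets were lowest on repeat 3 in the IL6 and IFNα groups, where this list was highest. They were lowest on repeat 3 in untreated cells too, where the list stood at -0.03, its lowest there, and after histamine the dimmer one was lowest on repeat 3 and the brighter on repeat 2. The part of these genes in the CD14 values was not tested. With IL6 repeats 2 and 3 and IFNα repeat 3 left out, the IL6 change was 1.27 for the brighter and 0.89 for the dimmer probe set. The IFNα change was 0.33 and 0.68. That fit leaves 1 IL6 array, so only the size of the changes is given and no call is read.

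Of the genes that work with CD14 at the lipopolysaccharide receptor, 12 of 19 others listed were measured. TLR4 itself was called after IFNα, rising 1.57-fold (log2 change 0.65). After IL6 and after histamine limma called 0 of the 12, with 5 and 7 at an unadjusted p under 0.05. The adaptor MYD88 had changes of 0.06 after IL6, -0.04 after IFNα and 0.07 after histamine. LBP, the serum protein that loads lipopolysaccharide onto CD14, was dim in every group. The medians of the 12 were 0.04, 0.12 and -0.08 after IL6, IFNα and histamine.

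ITGB2 was lower in all treated groups than in untreated cells, and the fall was called after IL6. Its probe set, Bt.4615.1.S1_at, read 5.63, 5.67 and 5.78 on the IL6 arrays and 6.14, 6.09 and 6.08 on the IFNα arrays. It read 6.23, 6.16 and 6.42 after histamine and 6.66, 6.51 and 6.76 in untreated cells. No array of a treated group reached the untreated arrays, and the IL6 arrays lay below all others. IL6 brought it to 5.69 ± 0.08, against 6.64 ± 0.13 in untreated cells (SD, n = 3 each), 1.93-fold lower, with a log2 change of -0.95 (SE 0.09, interval -1.13 to -0.77, limma adjusted p = 3.02e-06). In rank it was 38 from the bottom of all probe sets. The change was -0.54 after IFNα (interval -0.72 to -0.36, limma adjusted p = 0.000374) and -0.37 after histamine (interval -0.56 to -0.19, limma adjusted p = 0.00357). Both passed the p threshold and stayed under the fold minimum. Without untreated repeat 2 the IFNα change was -0.61 and passed both.

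Integrins work as pairs of an alpha and a beta chain, so the partners of ITGB2 were described beside it. The alpha chains ITGAL and ITGAD were not called in any comparison, with changes of 0.10 and 0.26 after IL6. ITGAM, the alpha chain of monocytes and neutrophils, was dim in every group. Of the partners, ligands and activators of these integrins, 14 of 17 others were measured, and limma called 0 after each treatment against untreated cells. At an unadjusted p under 0.05 there were 7 after IL6, 4 after IFNα and 7 after histamine. ICAM1, a main ligand, had changes of 0.33 after IL6, 0.53 after IFNα and 0.19 after histamine. Of the other integrin beta chains 6 of 7 were measured, and limma likewise called 0 after each treatment, with 3, 2 and 3 at an unadjusted p under 0.05. Their medians were 0.08, -0.03 and 0.10 after IL6, IFNα and histamine. ITGB1, the beta chain of most matrix-binding integrins, had changes of 0.33, -0.29 and 0.34.

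CORO1A was called in 3 of the 4 comparisons, higher each time. Its probe set, Bt.351.1.S1_at, read 9.43, 9.43 and 9.21 on the IL6 arrays and 7.38, 7.30 and 7.07 on the IFNα arrays. It read 8.26, 8.44 and 8.37 after histamine and 7.68, 7.67 and 7.62 in untreated cells. The 4 groups did not overlap at any point, in the order IFNα, untreated, histamine and IL6 from low to high. IL6 raised it 3.25-fold, to a mean of 9.36 ± 0.13 against 7.66 ± 0.03 in untreated cells (SD, n = 3 each). The log2 change was 1.70 (SE 0.08, interval 1.52 to 1.88, limma adjusted p = 8.78e-09), rank 24 from the top of all probe sets. On the arrays' own scale it stood at percentile 87.3 after IL6 and 66.3 in untreated cells. Histamine raised it 1.62-fold (log2 change 0.70, interval 0.52 to 0.88, limma adjusted p = 1.8e-05). After IFNα the change was -0.41 (interval -0.59 to -0.23, limma adjusted p = 0.00342), past the p threshold and under the fold minimum.

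The relatives of CORO1A were not called in any comparison. Measured were 4 of the other 6 coronins, namely CORO1B, CORO2A, CORO6 and CORO7, with changes between -0.28 and 0.24. At an unadjusted p under 0.05 limma gave 2 of them after IL6, 0 after IFNα, 2 after histamine and 3 for IL6 against IFNα. Of 24 listed genes of the Arp2/3 complex and of other actin regulators 17 were measured. Of these, limma called 0 after IL6 and 0 after IFNα. An unadjusted p under 0.05 was found for 12 and 9, a share not counted over all probe sets. After histamine 3 rose and 0 fell. ARPC5L and ARPC1B, subunits of the complex, rose by 0.77 and 0.64 on the log2 scale, and the actin-severing cofilin CFL1 rose by 0.62. The median of the 17 was 0.32 after histamine, 0.12 after IL6 and -0.10 after IFNα.

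**Figure D2:**
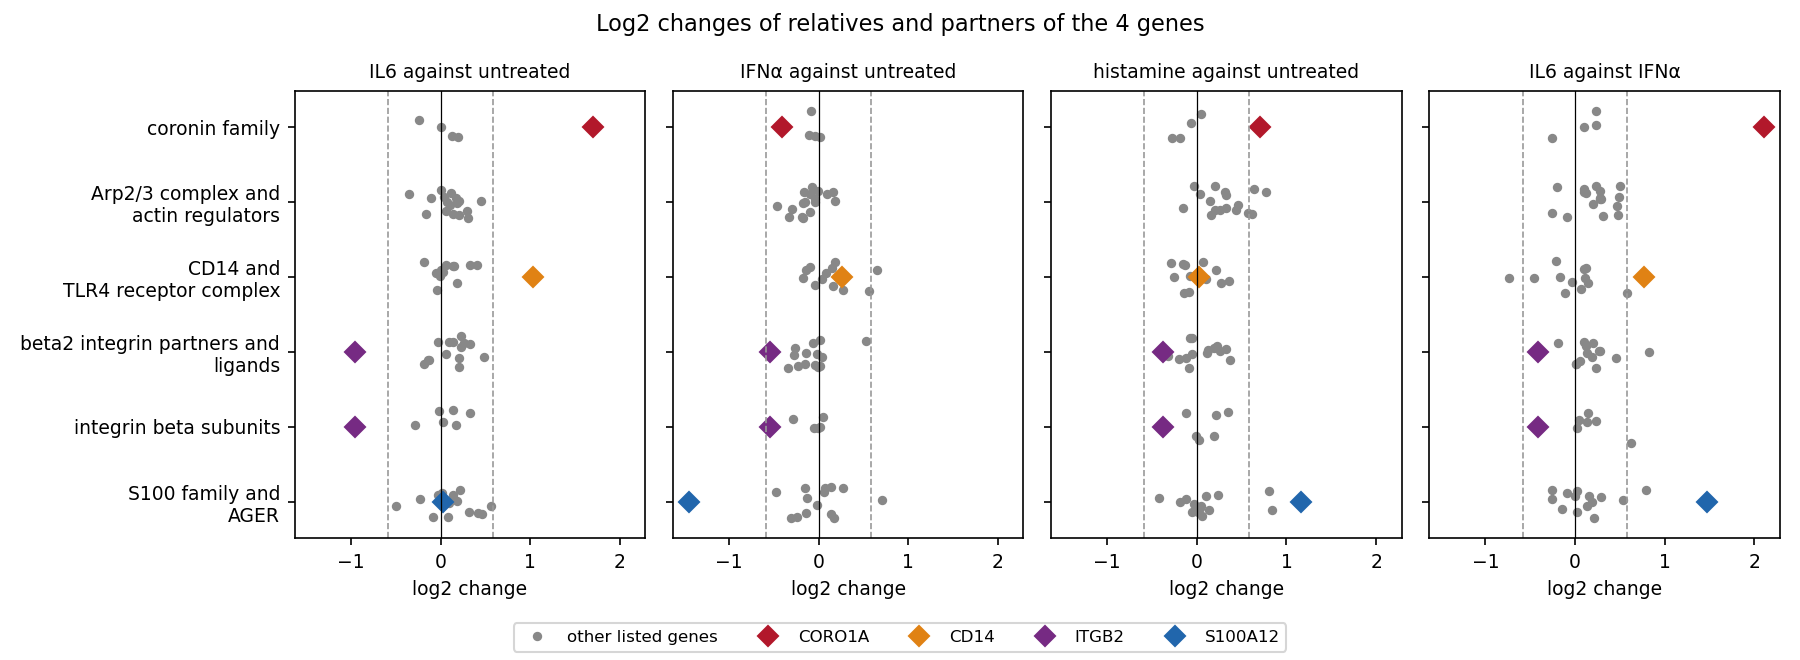
Log2 change (horizontal axis) of the 4 genes (diamonds) and of listed relatives and partners (grey points) in the 4 comparisons, with dashed lines at the fold minimum. CD14 is drawn by its brighter probe set. In the coronin row CORO1A stands at 1.70 after IL6 and the other 4 coronins lie between -0.24 and 0.19.

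Set against each other at 24 h, the cytokines differed for CORO1A, S100A12 and the brighter CD14 probe set. CORO1A was 4.31-fold higher after IL6 than after IFNα (log2 difference 2.11, interval 1.93 to 2.29, limma adjusted p = 7.78e-11). S100A12 was at least 2.78-fold higher after IL6 (difference 1.47, limma adjusted p = 5.73e-06), the IFNα level being dim. The brighter CD14 probe set was 1.71-fold higher after IL6 (difference 0.77, limma adjusted p = 0.000132), whereas the dimmer showed a difference of -0.02 (interval -0.27 to 0.24, adjusted p = 0.937 by limma). The mean of both CD14 probe sets gave 0.38, under the fold minimum. ITGB2 had a difference of -0.41 (limma adjusted p = 0.00213), also under it. Among the families, JAM3, a junction protein that binds a leukocyte integrin, was 0.83 higher after IL6 by its brighter probe set and 0.56, not called, by the other. ITGB1 was 0.62 and S100B 0.79 higher after IL6, and the adaptor TICAM2 had a difference of -0.74.

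**Figure D3:**
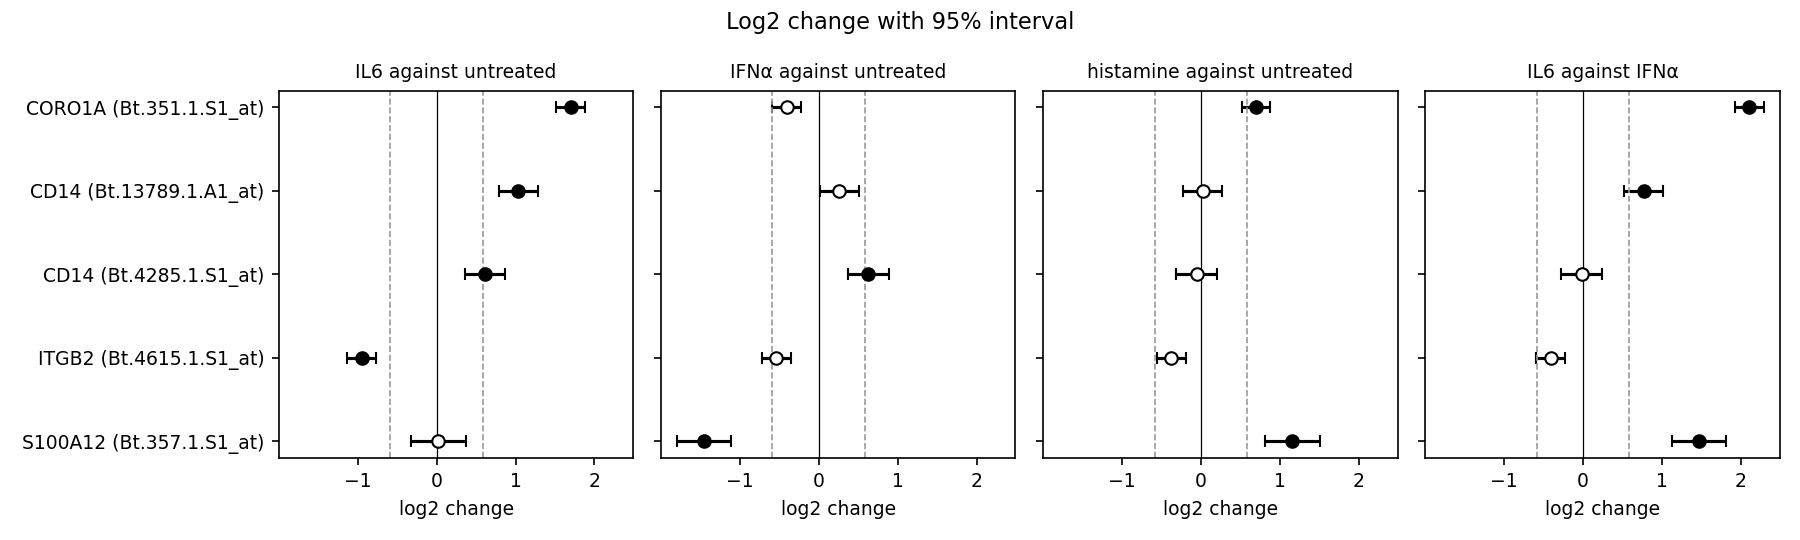
Log2 change (horizontal axis) of the 5 probe sets in each of the 4 comparisons, with 95% intervals from limma, a solid line at 0, dashed lines at the fold minimum and filled points for called changes. The CORO1A interval after IL6 runs from 1.52 to 1.88, and the ITGB2 interval after IL6 from -1.13 to -0.77.

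Because the 4 genes are markers of blood cells, the other markers of those cells were read on the same arrays. Across 5 lists, covering leukocytes of all kinds, monocytes and macrophages, neutrophils, lymphocytes and mast cells, 67 of 94 genes were measured, of which 63 were not among the 4 genes. Of these 63, 29 were dim in all 4 groups. PTPRC, the CD45 antigen of nearly all leukocytes, had 4.62 after IL6, 4.66 after IFNα, 4.72 after histamine and 4.56 in untreated cells. TYROBP, FCER1G, CD53, CD48 and PLEK were dim in every group too, as were ITGAM of myeloid cells, ELANE and LTF of neutrophils and MS4A1 and CD79A of B cells. The other 34 of the 63 were not dim in every group. Among them, in untreated cells, KIT had 10.08, ZAP70 7.59, ARHGDIB 7.22, CD247 6.91, JCHAIN 6.80, CYBB 6.48, NCF4 6.34 and LAPTM5 6.24, and the monocyte and macrophage markers CD68 and CSF1R had 5.93 and 5.58. By list, 6 of 16 measured genes of leukocytes of all kinds, 8 of 17 of monocytes and macrophages, 7 of 13 of neutrophils, 6 of 18 of lymphocytes and 2 of 3 of mast cells were dim in all groups. Whether the signal of the 4 genes came from blood cells in the cultures was not tested. The level of a dim probe set does not separate a low transcript from none. In RNA from a whole culture, fewer cells of a type and less RNA per cell cannot be told apart.

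Calls among the 63 other blood cell genes are given beside the share of all probe sets. After IL6 limma called 0 of the 63, after IFNα 1, after histamine 3 and for IL6 against IFNα 3. Of all probe sets 2.39%, 3.36%, 5.7% and 6.11% were called in these comparisons. The counts lie near those shares and are not read as a result about blood cell genes. An unadjusted p under 0.05 was found for 14, 9, 9 and 13 of the 63, a share not counted over all probe sets. After IFNα 1 fell: KIT, a receptor listed for mast cells, by 0.68 on the log2 scale. After histamine S100A8 rose, and the T cell kinase ZAP70 and the immunoglobulin joining chain JCHAIN fell by 1.10 and 0.97. IL6 against IFNα gave KIT and the actin bundler LCP1 higher, by 1.13 and 1.08, and ZAP70 lower, with a difference of -0.70. KIT was bright, at 9.40 after IFNα and 10.08 in untreated cells, and its other 3 probe sets had IFNα changes of -0.67 (called), -0.43 and -0.04. The other measured mast cell genes were dim. The medians of the 63 were 0.04 after IL6, 0.0033 after IFNα and 0.05 after histamine. The mean of all 67 genes per array was 5.41 to 5.45 after IL6, 5.29 to 5.31 after IFNα, 5.35 to 5.39 after histamine and 5.33 to 5.35 in untreated cells, the 4 genes included. Leaving out the 3 arrays with high hypoxia genes leaves 1 IL6 array, so no call is read from that fit. There the IL6 changes were 0.71 for LCP1, 0.73 for KIT and -0.82 for ZAP70, against 0.52, 0.45 and -0.52 with all arrays. KIT had -0.51 after IFNα.

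**Figure D4:**
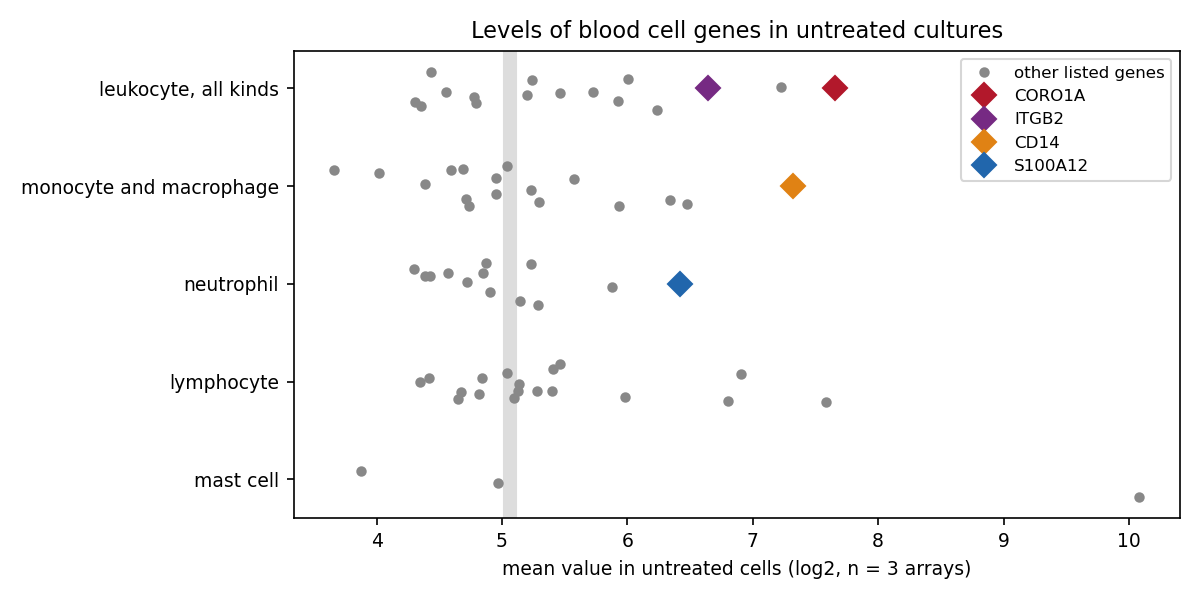
Mean log2 level (horizontal axis, n = 3 arrays) of each measured blood cell gene in untreated cells, by list, with the 4 genes as diamonds and a grey band at the lower quartiles of the arrays (5.02 to 5.11). CD14 is drawn by its brighter probe set, at 7.32, and 31 of the 63 other genes lie below the band.

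**Figure D5:**
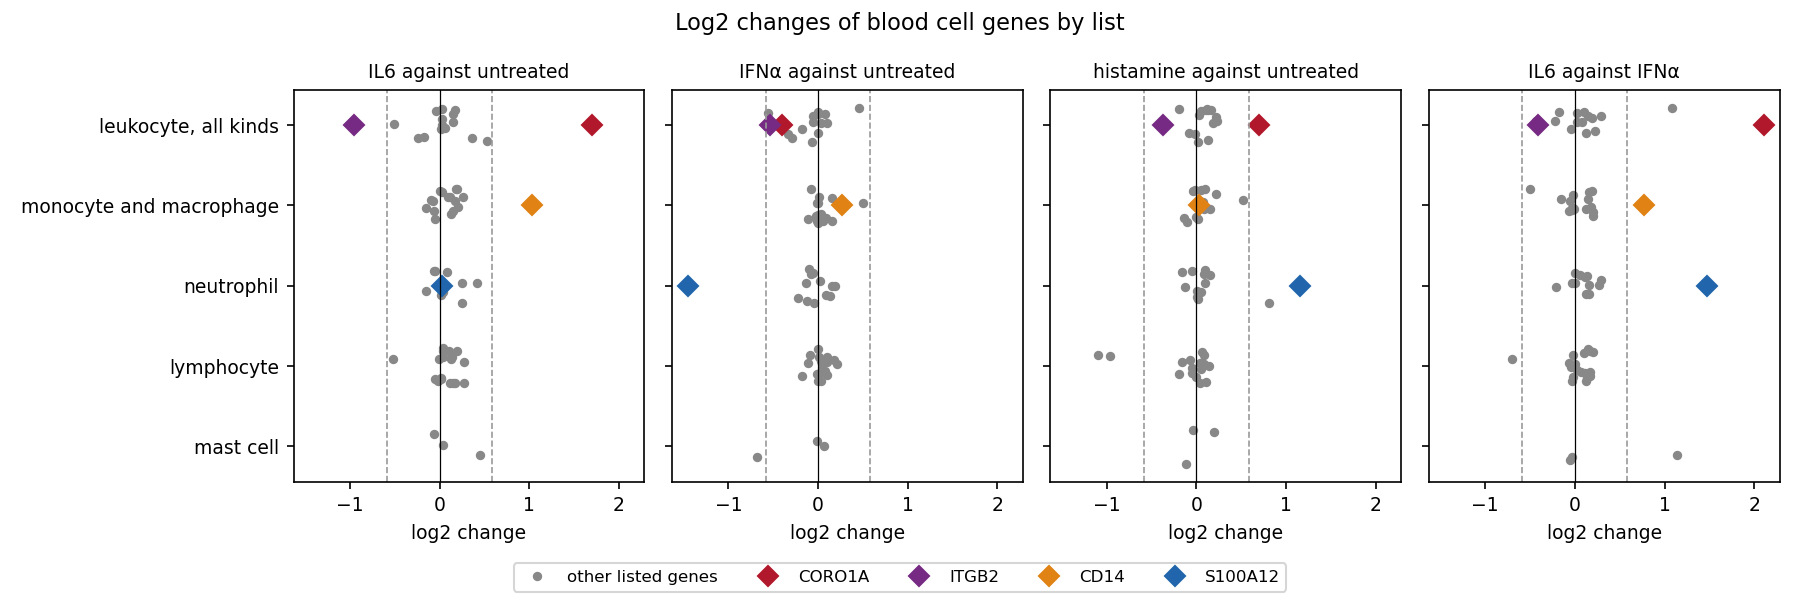
Log2 change (horizontal axis) of every measured gene of the 5 blood cell lists in the 4 comparisons, with the 4 genes as diamonds and dashed lines at the fold minimum. After IL6 the 63 other genes lie between -0.52 and 0.52, while CORO1A stands at 1.70, CD14 at 1.03 and ITGB2 at -0.95.

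MHC class II genes, which monocytes, macrophages and B cells use to present antigen, were measured for 12 of 15. After IFNα 5 rose and 0 fell, led by BOLA-DRA (2.32) and BOLA-DMB (2.13) and followed by BOLA-DRB3 (0.91), BOLA-DQA2 (0.74) and the protease CTSS (0.65). Of the other probe sets after IFNα, 1 of BOLA-DRB3 was called (0.70) and 2 of BOLA-DQA2 were not (0.52 and -0.06). After IL6 limma called 0 of the 12, with 2 at an unadjusted p under 0.05, and after histamine 1, BOLA-DRA, by 0.74. The second BOLA-DRB3 probe set was called after histamine as well (0.65), and the brighter was not (0.44). IL6 against IFNα gave 0 higher and 5 lower, with a difference of -1.97 for BOLA-DRA. Some of these genes are near-identical, and their probe sets may cross-hybridise. After IFNα class II genes rose on the arrays on which the dimmer CD14 probe set rose and S100A12 fell.

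Markers of other cells of the adrenal gland were read beside the 4 genes, and their part in the results was not tested. Of 11 adrenal cortex genes, 0 rose and 3 fell after IL6, 0 rose and 5 fell after IFNα, and 3 rose and 0 fell after histamine. CYP11A1, which makes pregnenolone from cholesterol, had -1.27, -1.06 and 0.93 in these comparisons. The mean of the list per array was 6.70 to 6.76 after IL6, 6.62 to 6.63 after IFNα, 7.57 to 7.60 after histamine and 7.11 to 7.13 in untreated cells. Of 11 endothelial genes measured, 0 rose and 1 fell after IL6 and after IFNα, EMCN in both, by 0.60 and 0.89, and 1 rose and 2 fell after histamine, CLDN5 (0.62, dim in untreated cells), SELP (-0.82, dim after histamine) and TEK (-0.81). Their array means were 5.67 to 5.81 after IL6, 5.56 to 5.60 after IFNα, 5.63 to 5.77 after histamine and 5.83 to 5.89 in untreated cells. Of 12 fibroblast and mural genes, POSTN rose by 0.94 and ACTA2 fell by 0.67 after IL6, ACTA2 fell by 0.76 after IFNα, and COL1A2 and FN1 rose by 0.69 and 0.63 after histamine. Their array means were 7.90 to 7.93 after IL6, 7.74 to 7.86 after IFNα, 8.34 to 8.39 after histamine and 8.04 to 8.08 in untreated cells. Of 6 Schwann cell genes limma called 0 after IL6, 0 after IFNα and 0 after histamine, with 3, 2 and 3 at an unadjusted p under 0.05.

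Chromaffin cell markers had array means of 12.08 to 12.44 after IL6, 12.30 to 12.64 after IFNα, 12.59 to 12.72 after histamine and 12.33 to 12.39 in untreated cells. Of 10 measured, SLC18A2, the vesicular monoamine transporter, rose by 0.85 and PNMT, the enzyme that makes adrenaline, fell by 0.71 after IL6. After IFNα limma called 0, with 4 at an unadjusted p under 0.05. After histamine PNMT, SLC18A2 and the granin SCG2 rose by 2.29, 0.77 and 0.73. Of the hypoxia and glycolysis genes 4 of 13 rose after IL6, NDRG1 (1.61), EGLN3 (1.51, dim in untreated cells), LDHA (1.35) and PFKFB3 (1.01). Limma called 0 of the 13 after IFNα, with 2 at an unadjusted p under 0.05, and 1 after histamine, PFKFB3 by 1.08. The other probe sets of LDHA, PFKFB3, COL1A2 and FN1 were not called in these comparisons, nor was the other of EMCN after IL6. Those of LDHA had changes of 0.06 and -0.14 after IL6. The first of them was nearly as bright as the one reported, with means of 11.26 and 11.33 over all arrays.

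Each gene's pattern over the 12 arrays had close parallels elsewhere, given here as a description. The candidates were 7125 probe sets with 1 symbol that passed the F test, and a gene can have several. Among them, the genes with the highest Pearson correlation to CORO1A were LYPD1 (r = 0.992), APOD (0.987) and TRIB1 (0.985). TRIB1, a pseudokinase, had changes of 1.81 after IL6, -0.11 after IFNα and 0.84 after histamine, beside 1.70, -0.41 and 0.70 for CORO1A. Nearest to the brighter CD14 probe set were the pyrophosphatase PPA1 (0.983), the transcription factor CEBPD (0.958) and POC5 (0.958). CEBPD had changes of 1.85, 0.01 and -0.28 in the same order. Nearest to ITGB2 were ADGRL4 (0.953), a receptor of endothelial cells, PPP3CA (0.944) and WASF1 (0.942), and ADGRL4 had changes of -1.04, -0.48 and -0.35. Nearest to S100A12 were SELENOK (0.980), MAN2A1 (0.975) and the amino acid transporter SLC7A5 (0.974), of which SLC7A5 had 0.15, -0.96 and 1.09. The points of each correlation share the same 12 arrays in 4 groups, so they mostly compare group means.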

How the data were processed

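Biotin-labelled total RNA of the cultures was read on single-colour Affymetrix arrays, per the labels' protocols. The authors deposited RMA log2 values for 24128 probe sets and 12 arrays, per the submitters' processing notes. RMA subtracts background, brings the arrays to a common scale and combines the probes of a set, which compresses changes of dim transcripts. The RMA version and settings were not given in the sources used here. No value was rescaled.

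Groups came from the labels, with 3 arrays each. After removal of 112 controls, 24016 probe sets entered the tests. Of these, 13292 had 1 symbol in the platform annotation, updated through a table of cattle genes, while 86 had several and 10638 had none. A listed gene was represented by its brightest probe set. Tests used limma 3.58.1 (R 4.3.3), with lmFit on group means from all 12 arrays, a trended eBayes and p-values adjusted by Benjamini-Hochberg over all probe sets. Values are given as mean ± SD over 3 arrays, and standard errors and intervals come from the fit.

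The 4 genes, the 18 gene lists and the tests were chosen with earlier results of these data known. Named genes are all probe sets of the 4 genes, up to 4 called genes per list and comparison by size, and the 3 best correlated genes per member. Listed genes that were not called (such as AGER, MYD88, ITGAL, ICAM1 and PTPRC), CTSS and the brighter blood cell markers fall outside this rule, their values being known when they were chosen. The procedure was tested on simulated data. The alternatives tried are given in the closing section. Promoter motifs were planned but not analysed here. Figures used matplotlib 3.10.9 in Python 3.11.15.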

Additional observations from a re-analysis of the deposited data

How the results depend on the processing

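The 20 changes of the 5 probe sets were recomputed under 25 other settings, giving 476 values. Of these, 462 kept their side of the call, 9 lost a call and 5 gained one. A turn of direction was counted only where the reported or the recomputed change was called, and there were 0. Uncalled changes near 0 did change sign: S100A12 after IL6 ran from -0.13 to 0.16. The brighter CD14 probe set after histamine ran from -0.05 to 0.08, and the dimmer from -0.15 to 0.005. In IL6 against IFNα the dimmer ran from -0.15 to 0.205, the upper end coming from the fit with 1 IL6 array. With no fold minimum, CORO1A (-0.41) and ITGB2 (-0.54) after IFNα, ITGB2 after histamine (-0.37) and ITGB2 in IL6 against IFNα (-0.41) were also called, and 4170, 4017, 7581 and 6839 probe sets were called after IL6, after IFNα, after histamine and in IL6 against IFNα, against 573, 807, 1369 and 1468 as reported. At a fold of at least 2 these counts were 149, 324, 254 and 547, and the calls of the dimmer CD14 probe set (0.61 after IL6, 0.63 after IFNα), of ITGB2 after IL6 (-0.95), of CORO1A after histamine (0.70) and of the brighter CD14 probe set in IL6 against IFNα (0.77) were lost by construction. The mean of both CD14 probe sets gave 0.38 in IL6 against IFNα (limma adjusted p = 0.0223). Leaving out each array in turn, the dimmer CD14 probe set ran from 0.48 to 0.74 after IL6 and from 0.53 to 0.69 after IFNα, and ITGB2 ran from -0.61 to -0.48 after IFNα. With no fold minimum, 7, 6 and 8 of the 63 other blood cell genes were called after IL6, after IFNα and in IL6 against IFNα. Over all 24016 probe sets that setting called 4170, 4017 and 6839. As reported, 0, 1 and 3 of the 63 were called. At a fold of at least 2 there were 0 of the 63 after IFNα, beside 324 of all probe sets. After histamine there was 1, against 3 as reported, beside 254 of all probe sets. Leaving out each array in turn gave 0 to 2 of the 63 after IL6 and 0 to 3 after IFNα, with no count over all probe sets given here. Array weights gave 0 after IFNα, beside 796 of all probe sets. None of these counts is read as a result about blood cell genes. Among the 25 settings, 1 left out the 3 arrays with high hypoxia genes and was chosen after seeing the data. It leaves 1 IL6 array, so its counts are not given. Causes beyond the change of threshold or of arrays were not tested. Leaving out the dimmer 50% of probe sets removed ITGB2 and S100A12, which have no value there. Among the 18 pairs of arrays with the same repeat number in different groups, deviations from the group means correlated at -0.07 to 0.60. Of these pairs 7 exceeded 0.1. The highest, 0.60 at repeat 3, the next, 0.53 at repeat 1, and the lowest, -0.07 at repeat 2, all lay between IL6 and IFNα. The dimmer CD14 probe set fell from repeat 1 to 2 to 3 in every group. The numbers were not shown to pair the arrays, and a shared origin of equal repeat numbers was not tested. With the repeat number as a replicate block, CORO1A had a change of 1.70 after IL6 (limma adjusted p = 9.57e-09), 600, 827, 1384 and 1473 probe sets were called, and no call of the 5 probe sets differed. Without detection calls, signal over background limits what can be read of S100A12 after IFNα and of the dim markers.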
